A study of Rattus norvegicus with 8 samples.

Results

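The genes described here encode the immunoproteasome subunits Psmb8, Psmb9 and Psmb10, the proteasome activator PA28 (Psme1, Psme2), the ubiquitin-like protein Ubd, the peptide transporter Tap1 and Tap2, its partner tapasin (Tapbp) and the MHC class I light chain B2m. They were measured in the kidney of male Wistar rats, 8 weeks old, after 24 days on a control AIN-93G diet with 0.3% phosphorus (4 arrays) or on a high phosphorus (HP) diet with 1.2% phosphorus (4 arrays), with 1 rat per Affymetrix rat expression array. All rats had first eaten the control diet during acclimatization, and the HP diet received its phosphorus as KH2PO4 in place of corn starch, so potassium rose with phosphorus. Average rats of each group, by urine volume or kidney phosphorus, were picked for the arrays, and p-values here apply only to rats picked in this way. The spread within diets may be smaller among them than among rats in general. That would make standardized differences larger and p-values smaller, which was not tested. Every probe set annotated with exactly 1 of these 10 gene symbols was taken, which gave 13 of 31099 probe sets. B2m, Psme1 and Tap1 had 2 probe sets each and the other genes 1, and no filter on low values was applied.

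Proteasomes cut proteins into short peptides. Under interferon, cells replace the constitutive catalytic subunits Psmb5, Psmb6 and Psmb7 with Psmb8, Psmb9 and Psmb10, and the PA28 ring caps the particle. The Tap1-Tap2 transporter carries the peptides into the endoplasmic reticulum, where tapasin helps to load them on MHC class I heavy chains paired with B2m. Ubd, also called FAT10, is a ubiquitin-like modifier that marks proteins for the proteasome and is induced by interferon-gamma and tumour necrosis factor in many cell types, tubular epithelium among them.

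The deposited values come from the distribution free weighted method (DFW), which shrinks the differences among the 8 arrays in each probe set to an extent that depends on how much it varies. They are on a log scale whose base is not given, and a difference in them is not a fold change. Differences are therefore given as HP minus control, with the standard error (SE) of limma, and as standardized differences, which divide them by the pooled SD within diets. Over the 31042 probe sets that are not Affymetrix controls, the median SD within diets was 2.22e-06 and the median absolute difference 1.53e-06. All 12 measured markers of nephron segments and renal vessels, such as Umod and Aqp2, had a mean above the upper quartile of all probe sets. The number of arrays limits the precision.

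On the HP diet Ubd, Psmb8, Psmb9, Psmb10, Psme1, Tap1 and B2m rose, each in 1 probe set, and none of the 13 probe sets fell. Thus 7 of 13 probe sets passed limma at an adjusted p under 0.05 (53.8%), where 2.95% of all probe sets were called higher and 1.13% lower. At an unadjusted p under 0.05, 11 were higher and 0 lower by limma (9.53% and 9.45% of all probe sets), and rank products, the test of the study, called 7 higher and 0 lower at an FDR under 0.05 (3.41% and 2.31% of all probe sets). In 11 of 13 probe sets the lowest HP array exceeded the highest control array, compared to 7.09% of all probe sets, and in 0 of 13 the order was the opposite, compared to 5.81%. The median standardized difference was 3.60 over the 13 probe sets and -0.21 over all probe sets. In RNA of the whole kidney, more cells of a type and more RNA per cell cannot be told apart.

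**Figure D1:**
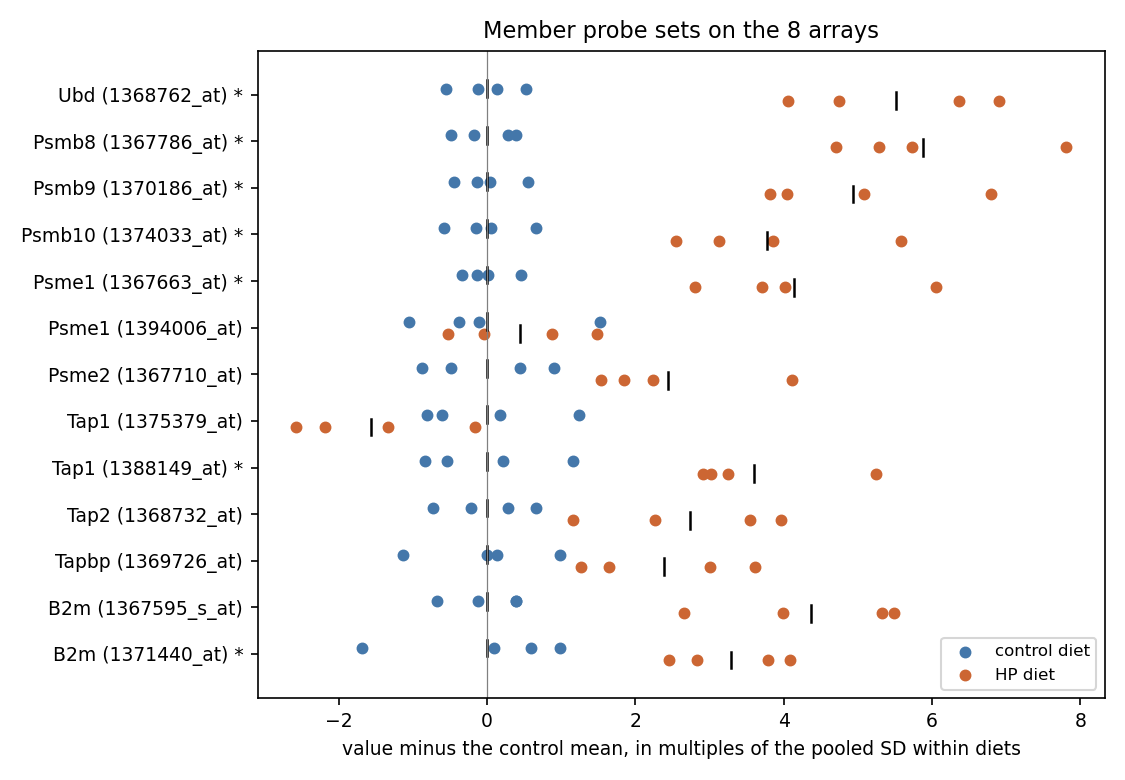
Value of each member probe set on the 4 control (blue) and 4 HP (orange) arrays, as the distance from its control mean in multiples of the pooled SD within diets; black bars are diet means and asterisks mark an adjusted p under 0.05. The groups overlap only in Psme1 1394006_at and Tap1 1375379_at; on the deposited scale the points shown are not rescaled between arrays, and Psme1, Tapbp and B2m turn negative after median centring, as do Psme2, Psme1 1394006_at and B2m 1371440_at after quantile normalization.

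Ubd had the largest difference of the 10 genes on the deposited scale, and the rise ranked 6 among all probe sets tested. DFW shrinks each probe set by its own amount, so this order need not be that of induction. By standardized difference Psmb8 stood above Ubd (5.88 against 5.52). The values of Ubd were 8.8300, 8.8337, 8.8276 and 8.8236 on control arrays 1 to 4 and 8.8880, 8.8932, 8.8665 and 8.8730 on HP arrays 1 to 4. HP arrays 1 and 2 were the highest, and the lowest HP array stood 0.0328 above the highest control array, 63.8% of the whole difference. The mean went from 8.83 ± 0.00425 to 8.88 ± 0.0125 (SD, n = 4 each), a rise of 0.0515 (SE 0.00621, standardized difference 5.52, adjusted p = 0.012 by limma). The diets held 91.0% of the variation of this probe set over the 8 arrays. The exact two-sided permutation test gave p = 0.029, the smallest that 4 arrays against 4 allow. Ubd was the only member that kept its call under both rescalings of the arrays, with an adjusted p of 0.00098 after quantile normalization.

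All 3 immunoproteasome subunits rose as well. Psmb8, the counterpart of the chymotrypsin-like subunit Psmb5, measured 7.8444, 7.8444, 7.8443 and 7.8442 on the control arrays and 7.8452, 7.8456, 7.8452 and 7.8451 on the HP arrays. The rise was 0.000951 (SE 0.000108), and its standardized difference of 5.88 was the largest of all members (adjusted p = 0.0095). Psmb9, the counterpart of Psmb6, measured 8.4245, 8.4245, 8.4244 and 8.4244 in the control group and 8.4252, 8.4254, 8.4250 and 8.4251 in the HP group, a rise of 0.000711 (SE 9.59e-05, standardized difference 4.94, adjusted p = 0.016). Psmb10, the counterpart of Psmb7, measured 7.86682, 7.86681, 7.86685 and 7.86679 against 7.86699, 7.86707, 7.86696 and 7.86693. It rose by 0.000172 (SE 3.04e-05, standardized difference 3.78, adjusted p = 0.033). The groups did not overlap in any of these subunits, HP replicate 2 was the highest array in each, and control replicate 4 was the lowest. After median centring the adjusted p was 0.98 for each of them with the direction kept, and after quantile normalization Psmb10 did not pass (0.60). The centred differences of Psmb8 and Psmb9 were still 0.00089 and 0.00065, where the array medians spanned 0.000185. After centring 4 member probe sets had groups that did not overlap, though only Ubd passed. A call lost on centring therefore need not mean that the diets overlapped, and why the calls were lost was not tested.

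**Figure D2:**
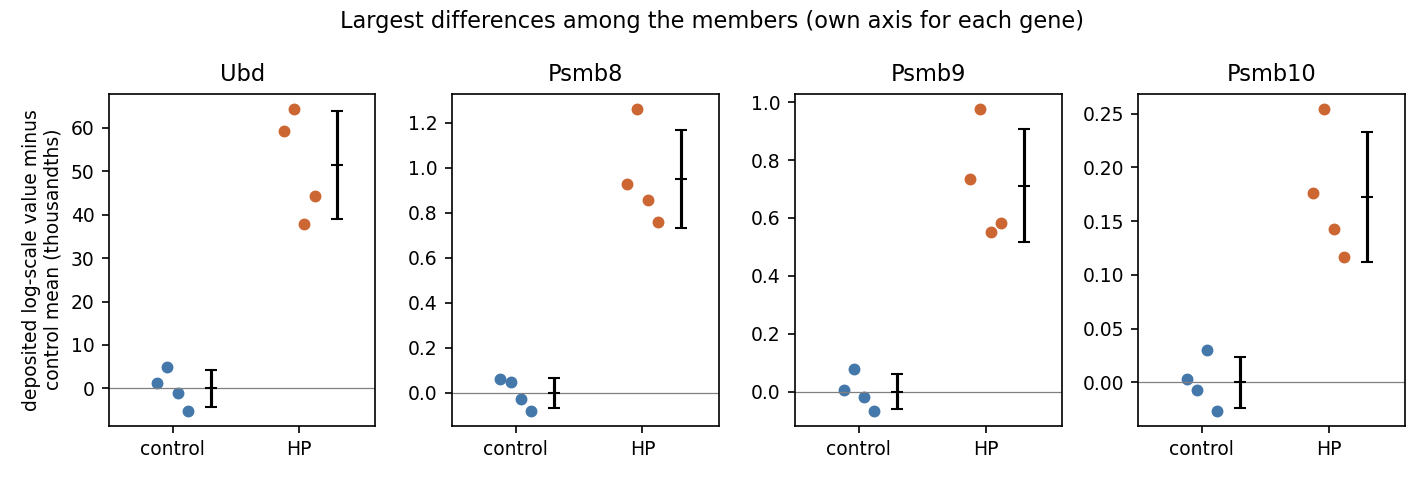
Deposited log-scale value minus the control mean, in thousandths, for Ubd and the 3 immunoproteasome subunits on each array, with the diet mean and SD (n = 4) beside the points and an own axis for each gene. All HP arrays lie above all control arrays in the 4 panels, and the HP points spread more widely.

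Both measured constitutive catalytic subunits had lower standardized differences between the diets than their inducible counterparts. Psmb5 had a standardized difference of -0.19 (adjusted p = 0.95), against 5.88 for Psmb8, and Psmb7 had 0.92 (adjusted p = 0.54), against 3.78 for Psmb10. These values stand side by side without a test of their difference, since DFW shrinks each probe set by its own amount. Psmb6 had no probe set with a single symbol and was not analysed here. Both other probe sets of Psmb5 did not pass either (standardized differences -1.41 and -0.65, adjusted p = 0.34 and 0.70).

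Psme1 encodes the alpha subunit of PA28. The probe set 1367663_at lay at -0.34 to 0.46 SDs around the control mean on the control arrays and at 4.02, 6.05, 3.71 and 2.80 SDs on HP arrays 1 to 4. It rose by 2.16e-05 (SE 3.49e-06, standardized difference 4.14, adjusted p = 0.026), but its difference turned negative after median centring and was 0 after quantile normalization. The probe set 1394006_at, for which no accession is listed, ran from -1.05 to 1.52 SDs on the control arrays and from -0.52 to 1.49 SDs on the HP arrays. The groups overlapped there, with a standardized difference of 0.45 (adjusted p = 0.80, exact permutation p = 0.60). Psme2, the beta subunit, lay at 2.24, 4.11, 1.54 and 1.85 SDs on the HP arrays and at -0.87 to 0.90 on the control arrays. The groups did not overlap, but the standardized difference of 2.43 did not pass limma (adjusted p = 0.11) and turned negative after quantile normalization, while rank products called it higher (FDR 0.014).

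The transporter subunits moved unevenly between probe sets. For Tap1, the probe set 1388149_at, built on an mRNA record, lay at -0.84 to 1.16 SDs on the control arrays and at 2.91, 3.25, 5.24 and 3.02 SDs on the HP arrays, with HP replicate 3 the highest. It rose by 7.17e-05 (SE 1.32e-05, standardized difference 3.60, adjusted p = 0.037). The Tap1 probe set 1375379_at, built on an expressed sequence tag and among the dimmest 25% of probe sets, had a standardized difference of -1.56 (adjusted p = 0.27). Its HP arrays ran from -2.57 to -0.16 SDs and its control arrays from -0.81 to 1.24, so the groups overlapped (exact permutation p = 0.086). The probe sets of Tap1 thus disagree in sign, and which of them follows the transcript better was not tested. Tap2 measured 3.97, 3.54, 1.16 and 2.26 SDs on the HP arrays and -0.73 to 0.66 on the control arrays. Its standardized difference of 2.73 did not pass limma (adjusted p = 0.080), although the groups did not overlap and rank products called it higher (FDR 0.0030).

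Tapasin, which bridges the transporter and class I molecules, showed the smallest separation of groups that did not overlap. Tapbp lay at -1.13 to 0.99 SDs on the control arrays and at 1.27 to 3.62 on the HP arrays, and its standardized difference of 2.39 did not pass (adjusted p = 0.11, negative after median centring). B2m, the light chain of every class I molecule, had groups that did not overlap in either probe set. The differences were 1.77e-06 in 1367595_s_at and 1.11e-05 in 1371440_at, where the median absolute difference of all probe sets was 1.53e-06. The first, 1367595_s_at, lay at 5.49, 5.32, 2.66 and 3.99 SDs on the HP arrays and at -0.67 to 0.39 on the control arrays. The second, 1371440_at, lay at 2.83, 4.08, 3.79 and 2.46 against -1.69 to 0.99. Only the second passed, with a standardized difference of 3.29 (adjusted p = 0.048) against 4.37 (adjusted p = 0.056) for the first. Median centring turned both negative, and quantile normalization turned the second.

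HP replicate 2 was the highest HP array in 8 of the 13 member probe sets, and control replicate 4 the lowest control array in 9 of 13. The HP arrays also differed more among themselves than the control arrays did. The SD was larger in the HP group in 11 of 13 member probe sets, with a median ratio of 2.10 and a range of 0.648 to 4.01. Over all probe sets it was larger in 50.5%, with a median ratio of 1.01.

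The rest of the proteasome was examined to see whether the whole particle moved. None of these genes passed limma. Of 11 measured structural subunits of the 20S core, 0 were higher and 0 lower, and the same held for 18 subunits of the 19S regulator, for 10 further activators, inhibitors and assembly factors and for both measured constitutive catalytic subunits. The background over genes, with 1 probe set each, was 4.58% higher and 1.23% lower by limma, 13.4% and 9.34% at an unadjusted p under 0.05, and 5.31% and 2.32% by rank products. At an unadjusted p under 0.05, 0 of these 41 genes were higher, and Psmc4 (standardized difference -2.01) and Psmd9 (-2.53), named after their values were seen, were lower. Rank products called 0 of them. The median standardized difference was 0.07 in the 20S core and -0.19 in the 19S regulator, against -0.07 over all genes. Psmb8, Psmb9 and Psmb10 thus stood at 3.78 or more, where the other 20S subunits ran from -0.46 to 2.34.

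Among 16 measured MHC class I heavy chains and relatives, 1 rose, 0 fell and 15 did not pass (median standardized difference 1.01). The riser was RT1-M3-1, a nonclassical chain that presents formylated peptides (standardized difference 6.39, adjusted p = 0.0075), and its difference was negative under median centring and under quantile normalization. At an unadjusted p under 0.05, 5 of the 16 were higher and 0 lower, and rank products called 2, RT1-M3-1 and RT1-S3 (standardized difference 3.07, adjusted p = 0.058, named after its value was seen). Class I genes are near copies of each other, so a probe set may bind RNA of several of them. Of 12 further loading and peptide-trimming proteins, including the chaperones calreticulin (Calr), calnexin (Canx) and Pdia3, 0 passed limma in either direction (median -0.17). At an unadjusted p under 0.05 the trimming peptidase Erap1 alone was higher (standardized difference 1.85), and rank products called it as well (FDR 0.047); another of its 3 probe sets passed limma (adjusted p = 0.033). Of 17 ubiquitin-like modifiers and partners of Ubd, 0 passed limma in either direction (median 0.93). At an unadjusted p under 0.05, 5 were higher (Isg15, Ube2l6, Usp18, Herc6 and Sumo2) and 1 lower (Ufm1), where 13.4% and 9.34% of all genes were, and rank products called Isg15, Ube2l6 and Usp18, which belong to the ISG15 pathway (standardized differences 1.92, 2.94 and 2.80). Sumo2 had a standardized difference of 6.30, above every member, from a difference of only 9.8e-07 (adjusted p = 0.13). Ufm1 had -3.28, from a difference of -9.1e-07 (adjusted p = 0.20). A standardized difference can thus be large where the SD within diets is very small. Erap1 and the 6 genes of this list were named after their values were seen.

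Of 21 measured genes of interferon and NF-kB signalling that act upstream of the members, 5 rose, 0 fell and 16 did not pass, with a median standardized difference of 2.28. Irf8, a regulator of macrophages and dendritic cells, had the largest at 16.55 (difference 0.000216, SE 8.68e-06, adjusted p = 0.00094). Irf1, which binds the promoters of many class I pathway genes, followed at 11.17 (difference 0.000496, SE 2.96e-05, adjusted p = 0.0038). Ifngr2, a chain of the interferon-gamma receptor, had 5.92 (adjusted p = 0.0094), and its other probe set passed as well (0.020). Rfx5, a factor of MHC promoters, and Nfkb2 also rose (standardized differences 3.83 and 3.38), but both were negative under either rescaling of the arrays and lost the call in 7 of 8 cases when 1 array was left out; Nfkb2 was named after its value was seen. The count of 5 became 3 without any 1 control replicate, HP replicate 1 or HP replicate 4, 4 without HP replicate 2 and 5 without HP replicate 3. Under both rescalings Irf8, Irf1 and Ifngr2 kept a positive difference, but none of the 3 passed after median centring (adjusted p = 0.98). Interferon-gamma itself did not pass (Ifng, standardized difference 0.21, adjusted p = 0.92). Its control mean of 6.03 lay below the 6.35 of Tap1 1375379_at, a probe set among the dimmest 25%, so a change could be missed there. Nlrc5, the transactivator of class I genes, did not pass either (2.61, adjusted p = 0.091, negative after both rescalings). Ifng and Nlrc5 are named here after their values were seen.

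**Figure D3:**
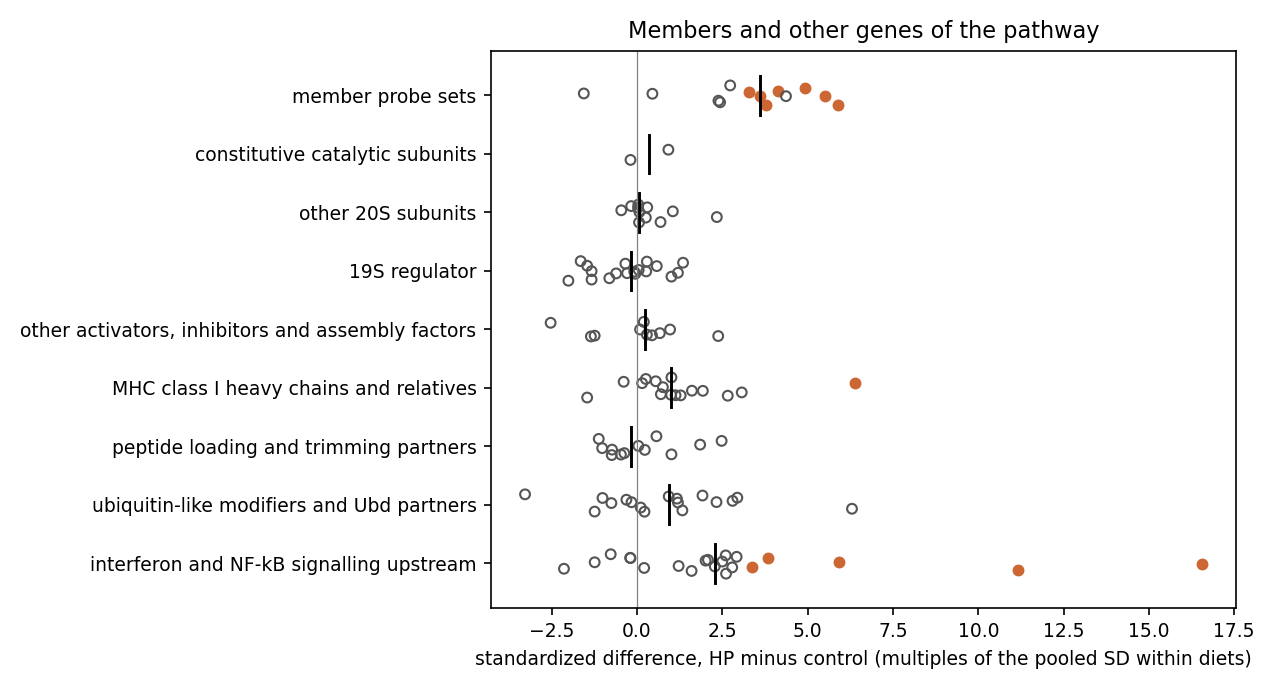
Standardized difference (HP minus control) of the member probe sets and of each measured gene of 8 pathway lists; filled circles have an adjusted p below 0.05 and bars are medians. The members have a median of 3.60 and the upstream list 2.28, while the 20S and 19S lists centre on 0.07 and -0.19; signs are those of the deposited values, and Rfx5, Nfkb2, RT1-M3-1, Psme1, Tapbp and B2m turn negative after median centring.

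Psmb8, Psmb9, Tap1 and Tap2 lie next to each other in the MHC on chromosome 20 (RefSeq, GRCr8), among class II genes. Of the 6 measured genes that flank them, 4 rose: RT1-Db1, RT1-Ba, RT1-Bb and RT1-DMa, all class II chains, with standardized differences of 4.75, 5.71, 5.41 and 4.33. RT1-DMb (2.85, adjusted p = 0.071) and Brd2 (1.49, adjusted p = 0.29) did not pass, and both were negative after median centring. The count of 4 became 2 without control replicate 2 or HP replicate 1, 1 after quantile normalization and 0 after median centring. Ubd and Tapbp lie farther off on the same chromosome, B2m on chromosome 3, Psme1 and Psme2 on chromosome 15 and Psmb10 on chromosome 19. Rises were thus seen on chromosome 20 and, in Psmb10, Psme1 1367663_at and B2m 1371440_at, on other chromosomes. The calls on other chromosomes were lost under both rescalings, and in 6, 6 and 8 of the 8 cases with 1 array left out. Tap1 and Psmb9 are read in opposite directions from starts 457 bases apart.

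Since the members moved together, their promoters were searched for the cores of 3 elements, on both strands and from 250 bases before to 50 bases after the start. The interferon-stimulated core (GAAA, any 2 bases, GAAA) was found in 7 of 10 members, against 3.92% of 33469 promoters in the RefSeq table. The gamma-activated core TTCNNNGAA was found in 1 (Psmb8), against 8.87%, and the NF-kB core (GGGA, any 4 bases, CC) in 3 (Tap1, Tapbp and B2m), against 19.3%. The stretches around the interferon core are printed because they show how nearly it is shared between genes on different chromosomes. They are RefSeq sequence of GRCr8, read in the direction of the gene. Capitals mark the core or, where the match is on the other strand, its reverse complement.
Psmb8, chr20:4657022-4657060, minus strand: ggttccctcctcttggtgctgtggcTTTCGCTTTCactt
Psmb10, chr19:50743283-50743334, minus strand: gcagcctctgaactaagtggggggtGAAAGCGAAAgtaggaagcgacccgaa
Psme2, chr15:33052770-33052829, minus strand: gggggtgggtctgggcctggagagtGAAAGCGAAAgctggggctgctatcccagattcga
Tap1, chr20:4668630-4668689, minus strand: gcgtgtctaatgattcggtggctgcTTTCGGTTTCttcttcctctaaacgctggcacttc
Tap2, chr20:4652303-4652362, minus strand: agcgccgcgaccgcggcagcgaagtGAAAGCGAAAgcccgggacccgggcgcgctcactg
Tapbp, chr20:4967868-4967922, minus strand: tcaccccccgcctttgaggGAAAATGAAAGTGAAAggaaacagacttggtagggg
B2m, chr3:129549155-129549214, plus strand: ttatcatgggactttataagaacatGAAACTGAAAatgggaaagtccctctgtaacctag

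Read in the direction of the core, the letters were the same, GAAAGCGAAA, in Psmb8, Psme2, Tap2 and the match of Psmb10 nearest to its start. Psmb10 held a further match, GAAAGTGAAA, starting 73 bases before the start, and the 2 matches of Tapbp overlap each other. In B2m the NF-kB core was matched on both strands at overlapping places. The 250 bases before the start of Tap1 hold both an interferon core and an NF-kB core (capitals). Those of Ubd, the member with the largest deposited difference, hold none of the 3 cores as spelled here. Near their end stands ggggatttcc, which departs from the searched NF-kB letters only in a g where they have an a. Farther upstream stands aaaagtgaaa, which departs from the interferon core only in an a where the core has a g. How often such near matches occur in other promoters was not tested.
Tap1, chr20:4668544-4668793, minus strand: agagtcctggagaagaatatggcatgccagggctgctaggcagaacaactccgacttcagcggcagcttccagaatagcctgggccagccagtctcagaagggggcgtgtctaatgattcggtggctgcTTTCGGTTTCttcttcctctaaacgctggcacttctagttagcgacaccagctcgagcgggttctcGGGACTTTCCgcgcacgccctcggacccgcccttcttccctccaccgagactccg
Ubd, chr20:1392686-1392935, minus strand: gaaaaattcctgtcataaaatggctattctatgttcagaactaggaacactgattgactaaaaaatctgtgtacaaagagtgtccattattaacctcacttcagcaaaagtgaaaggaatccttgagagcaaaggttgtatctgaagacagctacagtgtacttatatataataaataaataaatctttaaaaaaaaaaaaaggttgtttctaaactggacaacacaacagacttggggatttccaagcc

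The interferon core did not sort the members by their calls. Of the 7 genes that hold it, 4 had a probe set that passed, while Psme2, Tap2 and Tapbp did not, and all 3 genes without it (Ubd, Psmb9 and Psme1) had one. A missing match says only that these letters are not in this window. The interferon core of Tap1 lies between the starts of Tap1 and Psmb9, 457 bases apart, but outside the window of Psmb9. Over all genes with a promoter in the table, the core was present in 6.81% of 529 genes called higher, 1.31% of 153 called lower and 2.83% of 11051 not called, which is given as a description.

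**Figure D4:**
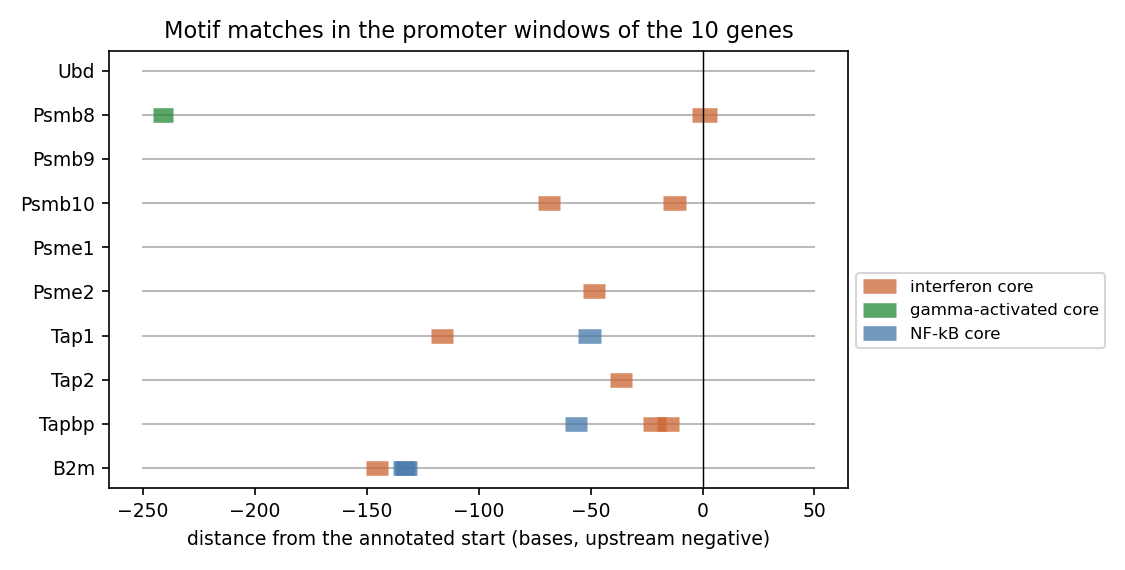
Position of the interferon, gamma-activated and NF-kB cores in the promoter window of each member, in bases from the annotated start (upstream negative). Of the 10 windows 7 hold an interferon core, and those of Ubd, Psmb9 and Psme1 hold no match to the letters searched.

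Markers of leukocytes moved with the members. Of 5 pan-leukocyte markers 4 rose and of 12 markers of macrophages and monocytes 10 rose, among them Coro1a (standardized difference 9.04), Ptprc (6.20), Aif1 (6.13), Mpeg1 (5.72) and Cd53 (5.38). The other probe set of Ptprc passed as well (5.54, adjusted p = 0.012). Those of Aif1 (-2.26, adjusted p = 0.135) and Mpeg1 (1.08, adjusted p = 0.45) did not. The macrophage and monocyte markers that did not pass were Itgam (2.46) and Cd163 (-0.26), named after their values were seen. Of 14 T and NK cell markers Cd3g and Lck rose (4.25 and 6.78), while, named after their values were seen, the defining Cd3e and Cd3d did not pass limma (3.09 and 2.90) but were called by rank products, and Cd4, Cd8a and Cd8b passed neither (-0.78, -0.77 and 0.79). Of 3 dendritic cell markers Flt3 rose (3.40, negative after both rescalings), and of 4 B cell markers 0 passed limma, 0 had an unadjusted p under 0.05 and 0 were called by rank products. The 10 macrophage and monocyte calls became 2 without control replicate 2, control replicate 3 or HP replicate 1, 3 without control replicate 1 or 4, 5 without HP replicate 3, 9 without HP replicate 2 and 10 without HP replicate 4. After median centring 5 macrophage and 1 pan-leukocyte marker passed, and after quantile normalization 9 and 3. The T and NK cell count of 2 became 1 without any array but control replicate 4 or HP replicate 3, 1 after quantile normalization and 0 after median centring, and Flt3 passed in none of these cases. The summed values of the macrophage list were 95.8520 to 95.8541 on the control arrays and 95.8695 to 95.8850 on the HP arrays, and those of the pan-leukocyte list 41.3636 to 41.3652 and 41.3690 to 41.3719. For T and NK cells the sums were 94.6494 to 94.6497 and 94.6500 to 94.6503, for dendritic cells 21.0485 to 21.0486 and 21.0486 to 21.0487, and for B cells 26.4726 throughout. HP replicate 2, the highest HP array in most member probe sets, had the highest HP sum in each of these 5 lists. Means above the median of all probe sets were found for 5 of 5 pan-leukocyte markers and 9 of 12 macrophage and monocyte markers. The same held for only 2 of 14 T and NK cell, 1 of 3 dendritic cell and 0 of 4 B cell markers. The kidney list had 0 calls, with sums of 130.7504 to 130.7506 and 130.7504 to 130.7505, and 1 of its 12 genes, Slc12a3, named after its value was seen, was lower at an unadjusted p under 0.05 (standardized difference -2.72). The part of leukocytes in the rise of the members was not tested.

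Leaving out 1 array lowered the number of member probe sets called higher from 7 to between 2 and 5. It was 2 without control replicate 1, control replicate 3 or HP replicate 1, 3 without control replicate 2 or 4, and 5 without HP replicate 2, 3 or 4. Ubd and Psmb8 passed in all 8 cases, with an adjusted p of at most 0.043 and 0.038 (both without control replicate 3). Psmb9 lost its call in 3 cases (up to 0.056), Psmb10 and Psme1 in 6 (up to 0.089 and 0.080), Tap1 1388149_at in 7 (up to 0.096) and B2m 1371440_at in all 8 (0.056 to 0.12).

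**Figure D5:**
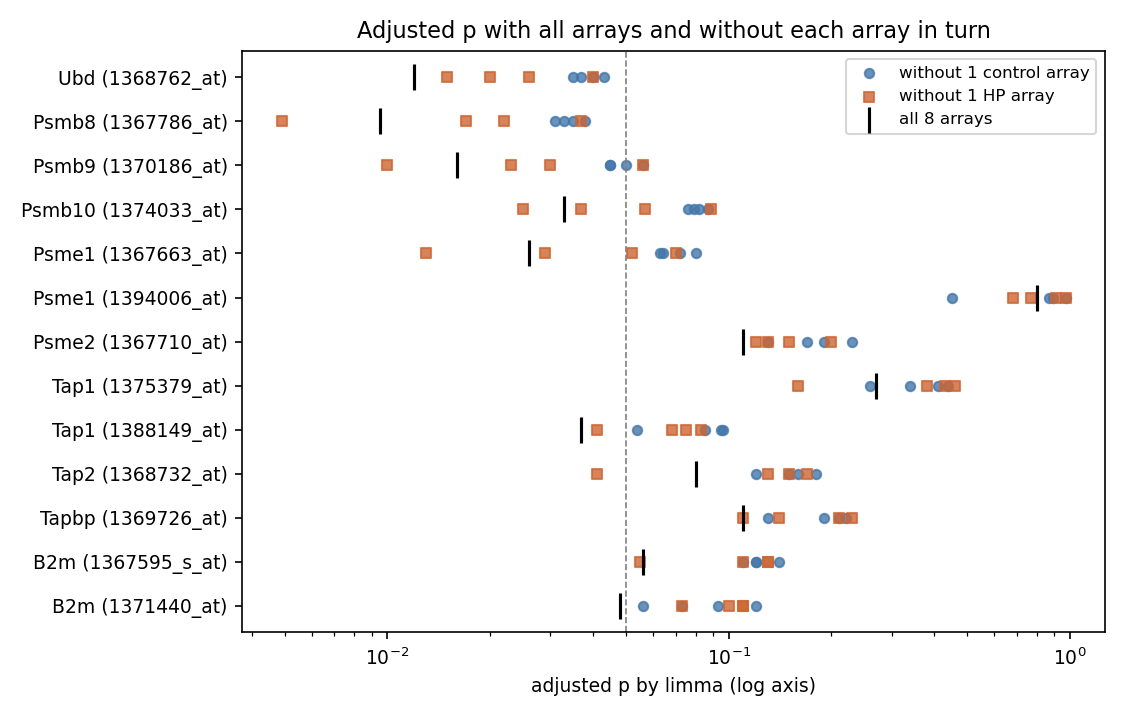
Adjusted p by limma (log axis) of each member probe set with all 8 arrays (black bar) and without each control (circle) or HP (square) array in turn; the dashed line is at 0.05. Only Ubd and Psmb8 stay left of the line in all 8 cases, and leaving out HP replicate 2 lowered the p of Psmb8 to 0.0049.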

How the data were processed

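The authors quantified the arrays with DFW in R over all 8 arrays together and deposited 1 value per probe set, a log2 value as assumed here since no base is stated. The values were used as deposited, and 57 Affymetrix control probe sets were left out, so 31042 were tested. The platform annotation gave 1 symbol to 20826 probe sets, several to 436 and none to 9780. Arrays were grouped by the titles in the labels, HP against control, and fitted with limma 3.58.1 in R 4.3.3 (empirical Bayes, prior degrees of freedom 0.772) with Benjamini-Hochberg adjustment over all probe sets and a threshold of 0.05. Every adjusted p is from this fit unless another setting is named. Exact permutation tests of single probe sets are two-sided and used all 70 arrangements. Rank products used 16 pairs of arrays and 1000 permutations of each array's values over probe sets. Genes outside the members were represented by the probe set with the highest mean. Promoters are those of RefSeq for GRCr8. The remaining steps ran in Python 3.11.15 (pandas 2.3.3, numpy 2.4.6), and the tests were checked on simulated data.

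All member probe sets are named. Of each other list, up to 4 genes with the smallest p among those that passed, the constitutive catalytic subunits and the genes flanking Tap2 to Psmb9 are named, and further names are marked. The members, lists and tests were chosen with earlier results of these data known. The alternatives were other limma settings, array weights, the replicate number as a block, quantile normalization, median centring, a filter on dim probe sets, 1 probe set per gene or all of them, rank products, and removal of each array in turn. For the marker lists and the flanking genes, the rescalings and the removal of each array were added after seeing the data.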

Additional observations from a re-analysis of the deposited data

Results flagged for a closer look

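In the Tap1 probe set 1388149_at, HP replicate 3 stood apart from the other HP arrays. At 5.24 SDs above the control mean, its gap to the next array took 0.854 of the range of the HP group, above the 95% limit of Dixon's test for 4 values. It was 1 of 26 groups of 4 arrays examined, and chance marks about 1 group in 20. Without HP replicate 3 the probe set passed with an adjusted p of 0.041.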

How the results depend on the processing

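Of 204 recomputed differences of single member probe sets, 143 kept their sign and side of the threshold, 43 kept the sign but lost the call, 6 gained one, 8 changed sign and 4 became 0, so that 47 calls were lost in all. The 7 calls became 3 after quantile normalization and 1 (Ubd) after median centring, and the 11 probe sets with groups that did not overlap became 3 and 4. After quantile normalization the sign turned for Psme1 1394006_at (-1.07e-05), Psme2 (-0.000248) and B2m 1371440_at (-0.000978), and the 4 differences of 0 arose there, in Psme1 1367663_at, Tap1 1375379_at, Tapbp and B2m 1367595_s_at. After median centring it turned for Psme1 1367663_at (-3.94e-05) and 1394006_at (-6.03e-05), Tapbp (-5.01e-05) and B2m 1367595_s_at (-5.93e-05) and 1371440_at (-4.99e-05). Centring moved the median difference of all probe sets from -2.24e-07 to -6.13e-05 and left 78 higher and 19 lower calls, and quantile normalization gave 316 higher and 7712 lower, against 915 and 350 before. The array medians spanned 0.000185, more than the differences of Psmb10, Psme1, Psme2, Tap1, Tapbp and B2m.

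With the replicate number as a block, 3 member probe sets were called (Ubd, Psmb8 and Psmb9). Deviations of arrays with the same number correlated at 0.12, 0.09, 0.06 and 0.00 over probe sets, and those with different numbers at -0.17 to 0.08. Whether arrays with the same number share more than that number was not tested. Without 1 array in turn, 2 to 5 member probe sets were higher and 0 lower, and 4 to 6 pathway genes higher. The number of member probe sets with HP arrays all above the control arrays was then 11 and all below 0 to 1 (Tap1 1375379_at without HP replicate 4), counts that leaving out an array cannot lower. Of 107 pathway genes 6 were higher and 0 lower; the first count became 3 after quantile normalization, 0 after median centring and 11 by rank products, and the second became 19 after quantile normalization. Rank products called 7 member probe sets too, with Psme2 and Tap2 in place of Psme1 and B2m. With all probe sets counted, 9 of them in 8 pathway genes were higher. The causes of these changes were not tested.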
